A study of Mus musculus with 12 samples.

Results

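The genes described here carry antigens to the surface of cells or pass immune signals between and within them. They were chosen by symbol among the protein-coding genes of GENCODE M21: those starting with H2-, Tap, Psmb8 to Psmb10, Irf, Stat, Jak, Ccl, Ccr, Cxcl, Cxcr, Il with a digit, Tnf, Traf, Tlr, Ifn, Ifi, Nfkb or Rel, or with Cd and digits. Of 448 gene models with such a symbol, 117 could be named in the counts and 66 of these had enough reads to be tested. The whole series held 9969 named genes, of which 4771 were tested.

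RNA was measured in trigeminal ganglia, the clusters of sensory neurons that serve the face and the cornea. All mice were female C57BL/6J aged 8 weeks, and each of the 4 groups had 3 libraries. Controls had no treatment. Injured mice had a keratectomy 2 weeks earlier, in which the epithelium and upper stroma were removed over a circle of 1.5 mm in the cornea of 1 eye, under ketamine and xylazine, with a dose of the analgesic Ethiqa XR afterwards. Injured and stimulated mice had the keratectomy and electrical stimulation, and a last group had stimulation without injury. Stimulation was a biphasic current of 300 µA at 20 Hz for 4 min a day over 14 days, from an electrode on the skin over the orbit to an electrode on the abdomen, under isoflurane. The drugs given with the operation move with injury and isoflurane moves with stimulation, so neither can be told apart from the procedure it served. Sham electrodes are described, but no library carries that label, and the series title names diabetic neuropathy while no label mentions diabetes. How many mice, and which ganglion, made up a library is not in the labels, and the p-values therefore measure the spread between these libraries, which may in part be technical.

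MHC class I molecules, made from H2-K1, H2-D1 and the H2-Q, H2-T and H2-M genes, show peptides from inside the cell to CD8 T cells. The immunoproteasome subunits Psmb8, Psmb9 and Psmb10 cut these peptides, the Tap1-Tap2 transporter carries them into the endoplasmic reticulum, and tapasin loads them. MHC class II molecules show peptides from endosomes to CD4 T cells and are made mainly by dendritic cells, macrophages and B cells. Interferons raise many of these genes through the Jak kinases, the Stat factors and the Irf factors, and tumour necrosis factor and Toll-like receptors act through the Traf adaptors and the NF-kappaB factors. In sensory ganglia, resident macrophages and satellite glia carry much of this machinery, and chemokine receptors such as Ccr2 are typical of monocytes that come from the blood.

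Many MHC class I genes share a promoter layout, and 4 of their promoters are shown, picked with the results known. All but H2-M10.1 belong to genes that were higher in at least 1 treated group. H2-M10.1 passed in no comparison as first tested, and 1 gene for contrast cannot link a motif to a result. The windows are the 250 bases before the transcription start in RefSeq (GRCm38.p6), written 5′ to 3′ in the direction of the gene. Capitals mark matches to GGGA, any 4 bases and CC, the kappaB motif bound by NF-kappaB factors, searched on both strands together with the interferon response element GAAA, any 2 bases and GAAA and the gamma-activated sequence TTCNNNGAA of the Stat factors.
H2-K1, chr17:34000348-34000597, minus strand: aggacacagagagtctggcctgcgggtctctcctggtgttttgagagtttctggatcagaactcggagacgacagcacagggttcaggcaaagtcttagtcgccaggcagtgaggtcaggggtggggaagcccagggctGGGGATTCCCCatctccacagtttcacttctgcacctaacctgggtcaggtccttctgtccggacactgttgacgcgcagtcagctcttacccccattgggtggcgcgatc
H2-Q4, chr17:35379367-35379616, plus strand: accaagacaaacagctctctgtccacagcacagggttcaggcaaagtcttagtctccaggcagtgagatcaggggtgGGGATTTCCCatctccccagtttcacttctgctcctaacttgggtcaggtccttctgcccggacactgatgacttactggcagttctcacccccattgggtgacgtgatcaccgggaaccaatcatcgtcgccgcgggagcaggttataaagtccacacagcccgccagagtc
H2-Q7, chr17:35438905-35439154, plus strand: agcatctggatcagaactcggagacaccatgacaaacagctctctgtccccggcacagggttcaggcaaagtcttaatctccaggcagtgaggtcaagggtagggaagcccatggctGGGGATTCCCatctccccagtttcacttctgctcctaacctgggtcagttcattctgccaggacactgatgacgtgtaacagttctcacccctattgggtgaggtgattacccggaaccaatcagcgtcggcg
H2-M10.1, chr17:36326151-36326400, minus strand: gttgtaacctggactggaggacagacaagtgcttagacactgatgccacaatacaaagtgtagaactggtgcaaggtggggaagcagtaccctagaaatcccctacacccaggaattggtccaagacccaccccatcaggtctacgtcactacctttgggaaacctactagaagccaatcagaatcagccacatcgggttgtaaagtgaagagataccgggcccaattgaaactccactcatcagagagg
H2-K1 held 2 overlapping kappaB matches, 110 and 111 bases before the start. The match in H2-Q4 lay 173 bases and that in H2-Q7 133 bases before the start, and the window of H2-M10.1 held none of the 3 motifs. Of all 32851 promoter windows of this length, 17.6% held the kappaB motif, 2.98% the interferon element and 7.02% the gamma-activated sequence. RefSeq windows were found for 54 of the 66 tested members, 67 windows in all, and 16, 6 and 11 of these held the same motifs. A match is only a description of the letters in a window. Only these fixed patterns were searched, so a window without a match can still hold a variant of the element.

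Counts came from 7.95 to 10.8 M (times 1000000) counted reads per library. The deposited counting intervals follow GRCm39 while the reads lie on GRCm38 coordinates, so each gene is named by the GRCm38 exons under an interval and is read through only part of its exons. The identifier deposited as H2-K1, for example, lies over exons of Tap2, and the identifier deposited as Stat3 over exons of Stat5b. Of the tested members, 6 carried their own identifier. The exon length under an interval ranged from 114 to 3899 bp, and a median of 17.2% of an interval lay on exons of the member, with the rest in its introns, in introns of other genes or outside genes. In 13 of the 66 at least 50% of the interval lay on exons of the member, and no interval touched exons of a second gene. MHC class I genes and the Ifi200 genes are near-identical families, so reads within each family could have been placed on the wrong member. Levels are TMM-scaled counts for each 1000000 counted reads (CPM), with the SD of 3 libraries. Fold changes are log2 values with their standard error from edgeR's quasi-likelihood test, and a gene is called where the Benjamini-Hochberg adjusted p over all 13053 tested intervals is under 0.05. Among called members, introns of other genes made up 71.8% of the interval of H2-Eb1, 71.2% of Irf8 and 46.9% of Cd24a. The share was 41.4% for Psmb8, 31.5% for Tnfrsf1a and 14.8% for Ifi211, and reads from those introns could enter these counts.

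After injury, 10 of 16 tested antigen presentation genes were higher than in controls. Against control, 14 of the 66 members were higher after injury and 4 lower, where 19.3% of all intervals were higher and 11.7% lower. The median log2 fold change was 0.23 over the members and 0.03 over all intervals. The 16 genes of MHC class I, MHC class II and peptide supply had a median of 0.68, and none was lower. DESeq2 called 14 members higher and 7 lower. After GC and length correction, the removal of a smooth trend of counts with GC content and exon length in each library, 7 members were higher and 3 lower, and 5 of the 16 antigen presentation genes were higher.

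With stimulation and no injury, 7 of the 16 antigen presentation genes were higher than in controls and 9 did not pass, and the chemokine receptor Ccr2 and 2 CD surface proteins were lower. Against the same controls, 10 members were higher and 6 lower, beside 18.2% and 11.7% of all intervals, and after GC and length correction 6 were higher and 6 lower. The antigen presentation genes then gave 4 higher and 1 lower. The median was 0.05 over the members and 0.03 over all intervals.

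After injury with stimulation, 4 members were higher and 3 lower than in controls, beside 12.3% and 4.93% of all intervals. These counts moved with single libraries. With its replicate 3 left out no member was called in that comparison (0.0578% of all intervals higher and 0.0217% lower), and with its replicate 2 left out there were 10 higher and 9 lower (17.2% and 14.4%). The 3 comparisons with control share the control libraries, so their values are given side by side and not as independent results.

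Stimulation of injured mice changed 1 member against injury alone. None was higher, beside 0.0383% of all intervals, and Cd36 was lower, beside 1.5%. The median log2 fold change was −0.23 over the members and 0.00 over all intervals. An unadjusted p under 0.05 in edgeR's test was met by 16 of the 66 members and by 1597 of all 13053 intervals. DESeq2 called 1 member higher and 3 lower. Against stimulation alone, injury with stimulation had 1 member higher (2.21% of all intervals) and 1 lower (1.85%). The interaction, the injury effect among stimulated mice minus that among unstimulated mice, was above 0 for 2 members (6.86% of all intervals) and below 0 for 8 (12.3%). After GC and length correction 1 of these 10 was still called, and DESeq2 gave 5 above and 8 below.

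These shares of all intervals are the background of each count, and none of the counts is read as particular to the members. The plot of fold changes by role shows where the called genes lie.

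**Figure D1:**
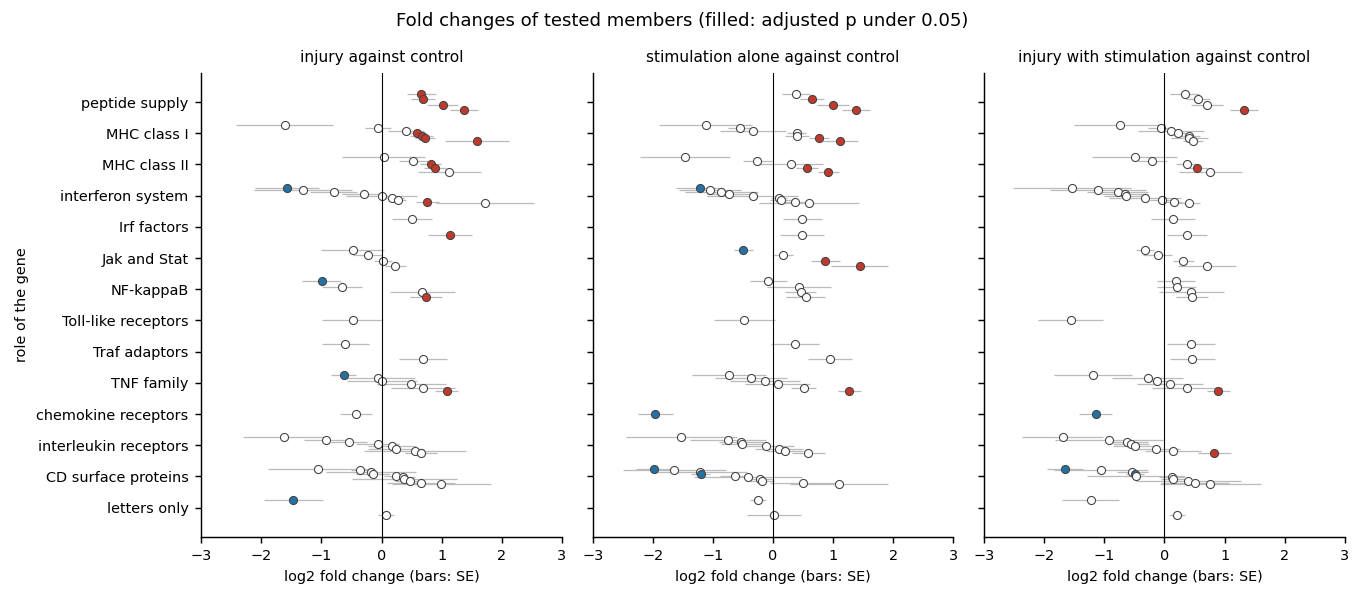
Log2 fold change (x axis, bars are the SE) of the tested members described here by role (y axis) in the 3 comparisons with control; filled points passed at an adjusted p under 0.05, red higher and blue lower. All 4 peptide supply genes are filled after injury, and the chemokine receptor Ccr2 is filled and lower with stimulation alone.

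Peptide supply genes were higher after injury in all 4 cases tested, and 3 of the 4 also with stimulation alone. Tap2, a subunit of the peptide transporter, had 20.5, 17.1 and 12.8 CPM in the controls, 50.4, 47.2 and 32.8 in the injured libraries, 53.6, 28.8 and 44.4 in those injured and stimulated, and 49.4, 42.6 and 39 in those stimulated only. Every treated library lay above every control, and replicate 2 of the injured and stimulated group was the lowest of the treated ones. Tap2 rose by 2.59-fold after injury (log2 fold change 1.37 ± 0.23, adjusted p = 0.00118), by 2.6-fold with stimulation alone (1.38 ± 0.23, adjusted p = 0.000493) and by 2.51-fold with both (1.33 ± 0.23, adjusted p = 0.00457). Injured mice with and without stimulation did not differ beyond their spread (−0.04 ± 0.23, adjusted p = 0.972). The gene lies at GRCm38 chromosome 17, 34203527 to 34216321, with reads over 418 bp of exon, 314 of it coding, under an interval of 2938 bp.

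Psmb8, the immunoproteasome subunit LMP7, had 5.88, 7.05 and 4.8 CPM in the controls, 13.2, 12.5 and 10.1 in the injured libraries, 12.8, 6.65 and 9.57 in those injured and stimulated, and 12.5, 11.6 and 11.5 in those stimulated only. Injured libraries and those with stimulation alone lay above all controls, and replicate 2 after injury with stimulation lay below the highest control. It was 2.02-fold higher after injury (1.02 ± 0.26, adjusted p = 0.00857) and 2.0-fold higher with stimulation alone (1.0 ± 0.26, adjusted p = 0.0083), and with both it did not pass (0.70 ± 0.26, adjusted p = 0.0763). Psmb8 lies at GRCm38 chromosome 17, 34197721 to 34201454 with reads over 420 bp of exon, 0 of it coding, under an interval of 717 bp. Its values changed little after GC and length correction (1.03 ± 0.29, adjusted p = 0.0188 after injury, and 1.01 ± 0.28, adjusted p = 0.0292 with stimulation alone).

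Tapbpl encodes TAPBPR, which edits the peptides held by class I molecules, and had 14.9, 14.2 and 12.3 CPM in the controls, 22.3, 24 and 20.7 in the injured libraries, 24.3, 17 and 19.8 in those injured and stimulated, and 27.4, 18 and 20 in those stimulated only. Each treated library was above the controls. It was higher after injury (0.69 ± 0.20, adjusted p = 0.0161) and with stimulation alone (0.66 ± 0.20, adjusted p = 0.0207), and each call was lost in 2 of 12 fits without 1 library, and both after GC and length correction (0.40 ± 0.22, adjusted p = 0.196, and 0.30 ± 0.22, adjusted p = 0.382). Psmb9, the subunit LMP2, had 11.4, 11.7 and 7.61 CPM in the controls, 14.2, 18.5 and 16 in the injured libraries, 16, 13 and 10 in those injured and stimulated, and 14.4, 14.8 and 11.1 in those stimulated only. The 3 injured libraries lay above all controls. Injury alone passed the test (0.66 ± 0.24, adjusted p = 0.0443), and this call was lost in 11 of 12 fits that left out 1 library and after GC and length correction (0.38 ± 0.25, adjusted p = 0.272).

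MHC class I genes were higher after injury for 4 of the 7 tested and with stimulation alone for 2. H2-K1, a classical class I heavy chain, had 267, 318 and 259.7 CPM in the controls, 442, 426 and 401 in the injured libraries, 387, 259 and 343 in those injured and stimulated, and 403, 369 and 340.3 in those stimulated only. Injured libraries and those with stimulation alone lay above all controls, and replicate 2 after injury with stimulation was the lowest of the 12. H2-K1 was 1.5-fold higher after injury (0.59 ± 0.16, adjusted p = 0.0103), while stimulation alone (0.40 ± 0.16, adjusted p = 0.0662) and both together (0.23 ± 0.16, adjusted p = 0.348) did not pass. The call was lost without control replicate 3 (adjusted p = 0.0509) and after GC and length correction (0.23 ± 0.19, adjusted p = 0.403). The gene lies at GRCm38 chromosome 17, 33996017 to 34000347, with reads over 897 bp of exon, 359 of it coding, under an interval of 3541 bp.

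H2-D1, the other classical class I gene of this strain, had 136, 187 and 123 CPM in the controls, 240.5, 245 and 224 in the injured libraries, 243, 146 and 201 in those injured and stimulated, and 217, 211 and 159.7 in those stimulated only. Controls lay below all injured libraries, and the other 2 groups overlapped the controls. It was 1.59-fold higher after injury (0.67 ± 0.19, adjusted p = 0.0157), a call lost in 4 of 12 fits without 1 library and after GC and length correction (0.59 ± 0.23, adjusted p = 0.08).

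H2-Q4, a nonclassical class I gene at GRCm38 chromosome 17, 35379617 to 35385290, had 15.9, 18.4 and 15.3 CPM in the controls, 30.1, 27.5 and 24.3 in the injured libraries, 24.1, 20.6 and 24.5 in those injured and stimulated, and 28.9, 25.5 and 29.9 in those stimulated only. All treated libraries were above all controls. It was higher after injury (0.72 ± 0.17, adjusted p = 0.00453) and with stimulation alone (0.76 ± 0.17, adjusted p = 0.00233), and with both it narrowly missed the threshold (0.48 ± 0.17, adjusted p = 0.0571). GC and length correction kept both calls (0.80 ± 0.18, adjusted p = 0.00863, and 0.89 ± 0.18, adjusted p = 0.00638), as did each fit without 1 library. It was read through 683 bp of exon, none of it coding, under an interval of 1555 bp.

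The remaining H2-Q genes split between the treatments. H2-Q1 had 3.55, 3.07 and 4.68 CPM in the controls, 12.2, 7.75 and 14 in the injured libraries, 2.28, 8.15 and 1.65 in those injured and stimulated, and 0.928, 4.96 and 3.02 in those stimulated only. It was 2.99-fold higher after injury (1.58 ± 0.53, adjusted p = 0.0328), with all 3 injured libraries above the controls and the injured and stimulated ones on both sides of them. H2-Q7, one of the Qa-2 genes, had 4.43, 4.89 and 2.58 CPM in the controls, 4.88, 4.46 and 6.53 in the injured libraries, 6.34, 4.5 and 5.08 in those injured and stimulated, and 9.16, 7.83 and 8.91 in those stimulated only. Its libraries with stimulation alone lay above all others, 2.17-fold over control (1.12 ± 0.30, adjusted p = 0.00942), and injury alone did not pass (0.41 ± 0.30, adjusted p = 0.33). The H2-Q1 call was lost in 5 of 12 fits without 1 library, the H2-Q7 call without control replicate 3, and both after GC and length correction (1.24 ± 0.51, adjusted p = 0.0858 for H2-Q1, and 0.58 ± 0.29, adjusted p = 0.19 for H2-Q7). Both H2-M10 genes passed in no comparison without that correction, and H2-M10.1 had group means between 12.04 and 17.5 CPM.

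Of the 5 MHC class II genes tested, 2 were higher after injury and also with stimulation alone. H2-DMa, a chain of the H2-DM molecule that exchanges peptides on class II, had 48.2, 55.7 and 44 CPM in the controls, 83.4, 107 and 84.3 in the injured libraries, 91.1, 53.6 and 70.2 in those injured and stimulated, and 70, 71.5 and 77.3 in those stimulated only. Injured libraries and those with stimulation alone were above all controls, and replicate 2 after injury with stimulation fell within the control range. H2-DMa passed after injury (0.89 ± 0.18, adjusted p = 0.00241), with stimulation alone (0.56 ± 0.18, adjusted p = 0.0234) and with both (0.54 ± 0.18, adjusted p = 0.0465). The stimulation call was lost in 6 of 12 fits without 1 library and the last in 11 of 12 fits without 1 library, and after GC and length correction only the call after injury held (0.61 ± 0.20, adjusted p = 0.0385). The gene lies at GRCm38 chromosome 17, 34119541 to 34139101, with reads over 1338 bp of exon, 564 of it coding, under an interval of 2673 bp.

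H2-Eb1, a gene for a class II beta chain, had 26.8, 35.9 and 28.8 CPM in the controls, 62.1, 54.1 and 45.3 in the injured libraries, 45.5, 30.2 and 42.6 in those injured and stimulated, and 63, 56.1 and 54.3 in those stimulated only. These are RNA levels, and whether a class II molecule with this chain was made was not measured. Libraries with stimulation alone and injured libraries lay above all controls and did not separate from each other, and replicate 2 after injury with stimulation lay within the controls. It was 1.76-fold higher after injury (0.82 ± 0.18, adjusted p = 0.00359) and 1.89-fold higher with stimulation alone (0.92 ± 0.18, adjusted p = 0.0012), and with both it did not pass (0.37 ± 0.18, adjusted p = 0.17). Both calls held in each fit without 1 library and after GC and length correction (0.62 ± 0.20, adjusted p = 0.0375, and 0.64 ± 0.20, adjusted p = 0.0464). H2-Eb1 was read through only 114 bp of coding exon under an interval of 1938 bp, much of which lies within the body of the gene model Gm20513. H2-DMb1, a gene for the other chain of H2-DM, had 22.1 ± 5.03 CPM in controls and 31.8 ± 6.19 after injury and did not pass (0.53 ± 0.24, adjusted p = 0.106). H2-DMb2 had 1.69 ± 1.1 CPM in controls and 3.72 ± 0.233 after injury. Its injured libraries lay above all controls, and it did not pass either.

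**Figure D2:**
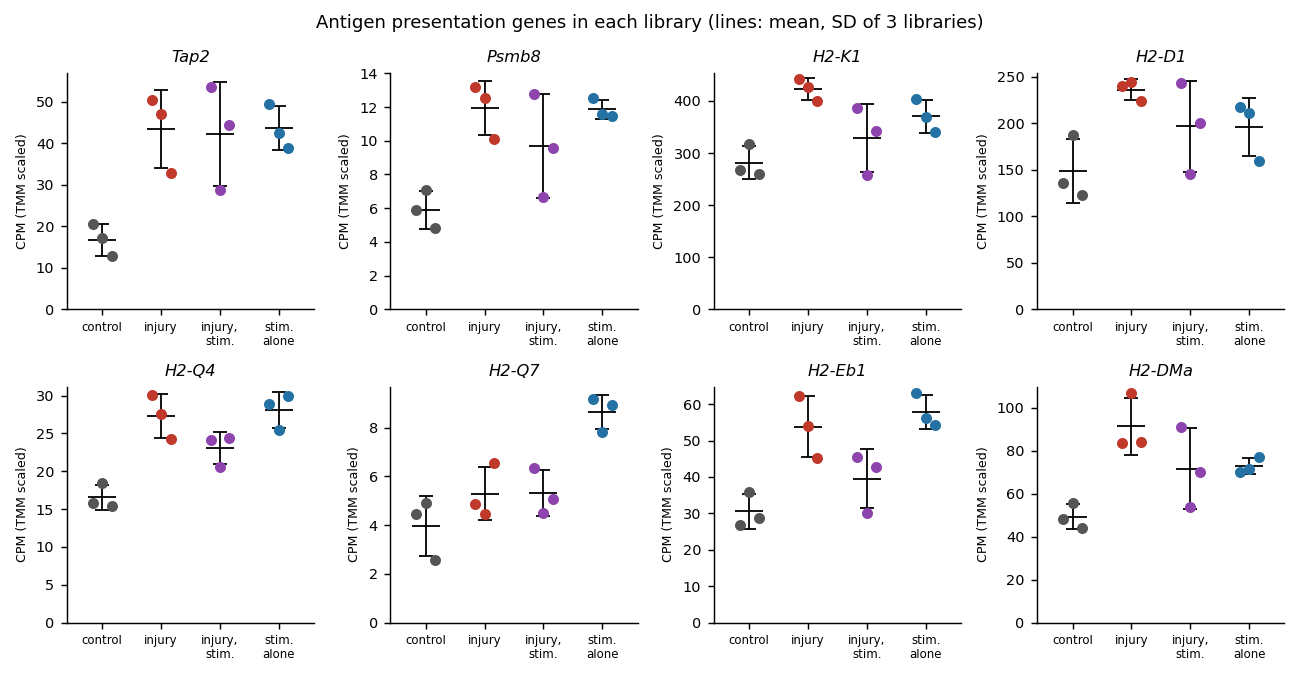
Level in CPM (y axis, from 0) of 8 antigen presentation genes in each of the 12 libraries (points) by group (x axis; stim. is stimulation), with the mean and SD of 3 libraries as black lines. Injured libraries lie above the controls for all of these except H2-Q7, and at least 1 injured and stimulated library is not above the controls for H2-K1, H2-D1, H2-DMa, H2-Eb1, Psmb8 and H2-Q7.

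Across the 11 antigen presentation genes called higher in any comparison with control, replicate 2 of the injured and stimulated group lay above all controls for 5, and its replicates 1 and 3 for 10 and 9. The 3 injured libraries did so for 10, 10 and 11, and those with stimulation alone for 10, 11 and 8. These genes were chosen as higher than the same controls, so the choice itself partly fixes these counts. Only 2 antigen presentation genes were called higher with both treatments, so the choice favours injury alone and stimulation alone. Genes outside the symbol rule in the same stretch of the genome moved likewise. They were taken by position whatever their function, so other immune genes can be among them. Between the outermost tested antigen presentation genes on GRCm38 chromosome 17, from 33996017 to 36326155, lay 17 other tested protein-coding genes, of which 11 were higher and 1 lower after injury and 9 were higher with stimulation alone. Their median log2 fold changes were 0.81 and 0.70, and their exons had a median GC content of 56.7%, against 49.4% over all named protein-coding genes tested.

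GC content moved with direction among the called members too. The exons read had a median GC content of 54.1% in the 14 members higher after injury and 44.9% in the 4 lower, and 55.2% and 43.2% in the 10 higher and 6 lower with stimulation alone. The GC and length correction kept 9 of the 18 calls after injury and 10 of the 16 with stimulation alone. It also gave 5 calls not made without it: Il6st lower after injury, Tnfrsf21 higher and H2-M10.1 lower with stimulation alone, and H2-Q4 and Relch higher with both. Over the 4762 intervals in that fit, 11.5% were higher and 11.5% lower after injury, and 7.22% and 6.09% with stimulation alone. The part of GC content in the results was not tested further. The direction of every called member was the same in all alternatives run.

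**Figure D3:**
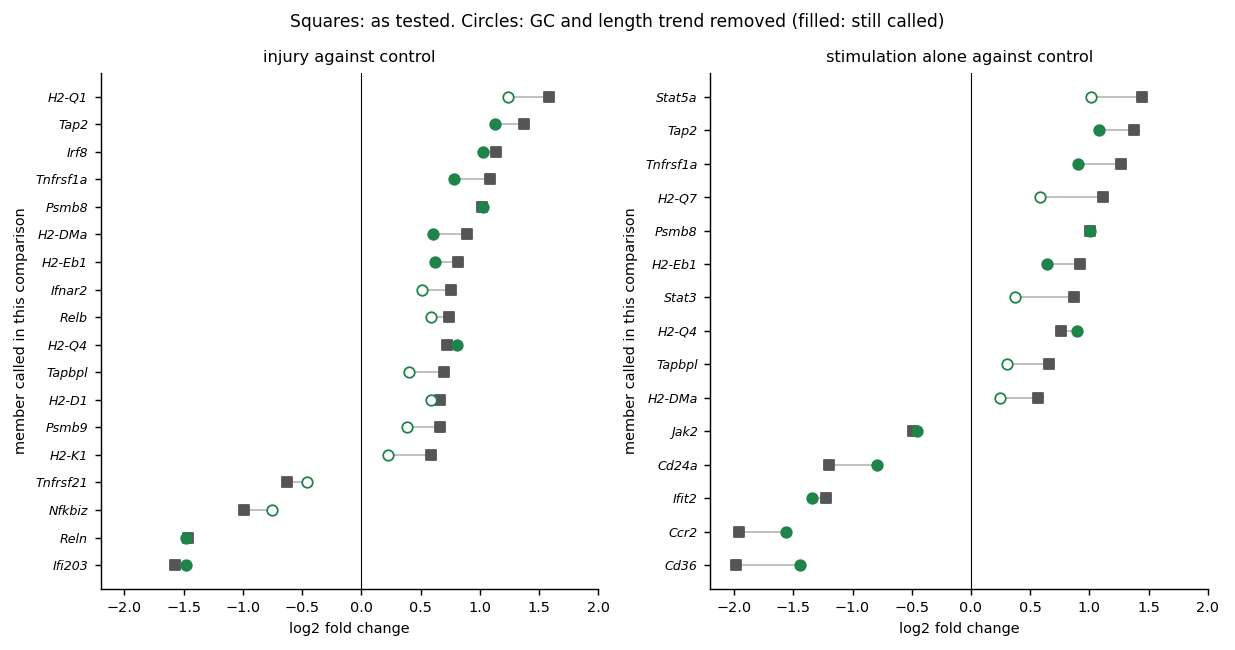
Log2 fold change (x axis) of the members called and described here after injury (left) and with stimulation alone (right), as tested (squares) and with a GC content and exon length trend removed (circles, filled where still called). Tap2, Psmb8, Tnfrsf1a, H2-Q4 and H2-Eb1 stay filled in both panels, and no circle lies on the other side of 0.

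The type I interferon receptor was read through both chains. Ifnar1 had 61.6, 60.4 and 56.8 CPM in the controls, 72.1, 73.4 and 70.7 in the injured libraries, 68.5, 59.4 and 72.3 in those injured and stimulated, and 66.3, 56.9 and 68 in those stimulated only. It passed in no comparison, although the 3 injured libraries lay above all controls (0.27 ± 0.13, adjusted p = 0.123). Ifnar2 had 22.1, 22.8 and 26.5 CPM in the controls, 44.5, 35.3 and 41.1 in the injured libraries, 39.8, 22.3 and 32.3 in those injured and stimulated, and 27.8, 35.1 and 29.5 in those stimulated only and was 1.69-fold higher after injury (0.76 ± 0.20, adjusted p = 0.0081), with injured libraries above all controls. Stimulation alone (0.37 ± 0.19, adjusted p = 0.165) and both together (0.40 ± 0.20, adjusted p = 0.168) did not pass, and the call after injury was lost after GC and length correction (0.51 ± 0.23, adjusted p = 0.11). Ifngr1, a chain of the interferon gamma receptor, stood at 10.8 ± 0.862 CPM in controls and 12.2 ± 0.973 after injury (0.18 ± 0.20, adjusted p = 0.53).

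Of the Ifi and Ifit genes, Ifi203 and Ifit2 passed against control, and both were lower. Ifi203, an Ifi200 gene whose products bind DNA, had 5.32, 3.75 and 5.27 CPM in the controls, 2.0, 2.02 and 0.694 in the injured libraries, 2.54, 4.93 and 0.827 in those injured and stimulated, and 1.51, 2.65 and 2.71 in those stimulated only. The controls and the injured libraries did not overlap, and it was lower after injury (−1.57 ± 0.54, adjusted p = 0.0346), which was lost in 5 of 12 fits without 1 library. Ifit2, whose product binds viral RNA in the cytosol, had 8.2, 5.92 and 6.32 CPM in the controls, 3.88, 4.14 and 3.75 in the injured libraries, 2.54, 7.4 and 2.95 in those injured and stimulated, and 2.78, 1.98 and 3.9 in those stimulated only. It was lower with stimulation alone (−1.22 ± 0.39, adjusted p = 0.0265), with no overlap with the controls, a call lost in 4 of 12 fits without 1 library. The injured libraries also lay below the controls without passing (−0.79 ± 0.39, adjusted p = 0.131), and replicate 2 after injury with stimulation lay within the control range. Ifi211 stood at 0.718 ± 0.226 CPM in controls and 2.38 ± 1.34 after injury with 1 library at 0 after injury with stimulation, and passed only in the interaction.

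Of the Irf factors, Irf8, needed for the making of macrophages and dendritic cells, had 4.66, 3.75 and 2.11 CPM in the controls, 10.2, 7.22 and 5.69 in the injured libraries, 3.17, 5.57 and 2.84 in those injured and stimulated, and 4.06, 5.51 and 5.17 in those stimulated only. Injured libraries were the 3 highest of the 12, 2.2-fold over control (1.14 ± 0.36, adjusted p = 0.0264). Both other treated groups overlapped the controls (0.49 ± 0.37, adjusted p = 0.348 with stimulation alone, and 0.14 ± 0.37, adjusted p = 0.839 with both). The call was lost in 4 of 12 fits without 1 library and held after GC and length correction (1.03 ± 0.34, adjusted p = 0.0408). Irf2 had 6.1, 11.6 and 4.22 CPM in the controls, 9.32, 12.5 and 9.3 in the injured libraries, 9.51, 6.75 and 12.3 in those injured and stimulated, and 8.93, 11.6 and 10.2 in those stimulated only. It overlapped between all groups and passed in no comparison.

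Of the 4 Jak and Stat genes tested, 3 passed with stimulation alone and none after injury. Stat3, the main signal carrier of the interleukin 6 family of cytokines, had 38.2, 42 and 28.1 CPM in the controls, 23.5, 35.3 and 33.5 in the injured libraries, 23.8, 40.9 and 35.2 in those injured and stimulated, and 58.1, 50.8 and 88.8 in those stimulated only. The libraries with stimulation alone were the 3 highest of the 12, and the other groups overlapped. Stat3 was 1.83-fold higher than control (0.87 ± 0.24, adjusted p = 0.0107), and lower after injury with stimulation than with stimulation alone (−0.98 ± 0.24, adjusted p = 0.0282). The call against control was lost without control replicate 3 or stimulated replicate 3, the call against stimulation alone in 4 of 12 fits without 1 library, and both after GC and length correction (0.38 ± 0.22, adjusted p = 0.262, and −0.61 ± 0.22, adjusted p = 0.161), and only 209 bp of its exons were read.

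Stat5a, which carries signals of interleukin 2 and growth hormone, had 1.77, 0.91 and 1.05 CPM in the controls, 0.998, 0.956 and 0.694 in the injured libraries, 1.27, 2.25 and 2.6 in those injured and stimulated, and 2.9, 2.43 and 4.86 in those stimulated only, low levels at which the stimulated libraries still lay above all controls (1.44 ± 0.48, adjusted p = 0.0296). This call was lost in 4 of 12 fits without 1 library and after GC and length correction (1.01 ± 0.47, adjusted p = 0.152). Jak2, the kinase of many cytokine and hormone receptors, had 42.5, 48.5 and 40.1 CPM in the controls, 45.5, 42.6 and 44.8 in the injured libraries, 29.4, 38.4 and 37 in those injured and stimulated, and 26.7, 31.4 and 34.9 in those stimulated only. Stimulated libraries lay below all controls and injured ones within them (−0.49 ± 0.15, adjusted p = 0.0232 with stimulation alone, and 0.02 ± 0.15, adjusted p = 0.935 after injury), and the call was lost in 3 of 12 fits without 1 library. Stat5b stood at 32.4, 46.4 and 40.3 CPM in the controls, 53.1, 44.5 and 42.1 in the injured libraries, 60.8, 38.9 and 48.1 in those injured and stimulated, and 45.1, 44.3 and 43.9 in those stimulated only and passed in no comparison.

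Of the 4 NF-kappaB genes tested, Relb and Nfkbiz passed after injury and none in another comparison. Relb, the subunit that acts in the pathway of lymphotoxin and CD40, had 8.42, 5.69 and 5.5 CPM in the controls, 11.6, 10.6 and 10.6 in the injured libraries, 7.48, 9.33 and 10.3 in those injured and stimulated, and 11.6, 6.95 and 8.52 in those stimulated only. Injured libraries were above all controls (0.74 ± 0.26, adjusted p = 0.0419), a call lost in 10 of 12 fits without 1 library. Nfkbiz, a nuclear IkappaB protein, had 5.76, 7.85 and 9.14 CPM in the controls, 5.32, 3.51 and 2.5 in the injured libraries, 7.48, 10.1 and 8.39 in those injured and stimulated, and 7.65, 8.93 and 5.09 in those stimulated only and was lower after injury (−0.99 ± 0.33, adjusted p = 0.0292). The 3 injured libraries lay below every control, and those of the other groups overlapped the controls. Nfkb1, which encodes the p50 subunit, lay below all controls in the 3 injured libraries and passed in no comparison (−0.65 ± 0.34, adjusted p = 0.149 after injury). The Nfkbiz call was lost in 4 of 12 fits without 1 library, and both calls were lost after GC and length correction (0.59 ± 0.27, adjusted p = 0.115 for Relb, and −0.76 ± 0.33, adjusted p = 0.105 for Nfkbiz).

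The 1 Toll-like receptor and 2 Traf adaptors tested passed in no comparison. Tlr4, the receptor of bacterial lipopolysaccharide, had 3.21, 2.39 and 1.41 CPM in the controls, 2.44, 1.7 and 0.833 in the injured libraries, 0.887, 0.643 and 0.827 in those injured and stimulated, and 1.51, 2.1 and 1.43 in those stimulated only. Its 3 libraries after injury with stimulation lay below all controls (−1.56 ± 0.55, adjusted p = 0.0582). Traf3 had 4.21, 3.64 and 3.28 CPM in the controls, 3.33, 2.12 and 1.8 in the injured libraries, 4.44, 7.07 and 3.78 in those injured and stimulated, and 7.42, 4.19 and 9.79 in those stimulated only. Injured libraries reached just above the lowest control, and those with stimulation alone overlapped the controls (0.95 ± 0.37, adjusted p = 0.0617). Traf1 had 2.89 ± 0.142 CPM in controls and 4.66 ± 1.64 after injury (0.69 ± 0.40, adjusted p = 0.196).

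Of the TNF family, Tnfrsf1a, the main receptor of tumour necrosis factor on most cells, changed in all comparisons with control. It had 29.6, 21.6 and 24.1 CPM in the controls, 51.7, 57.7 and 50.5 in the injured libraries, 51.2, 32.8 and 56 in those injured and stimulated, and 66, 63.6 and 52.4 in those stimulated only. Every treated library lay above every control, and replicate 2 after injury with stimulation was the lowest treated one. Tnfrsf1a was 2.12-fold higher after injury (1.08 ± 0.19, adjusted p = 0.00132), 2.41-fold with stimulation alone (1.27 ± 0.19, adjusted p = 0.000244) and 1.86-fold with both (0.89 ± 0.19, adjusted p = 0.00666). The first 2 calls held in each fit without 1 library and after GC and length correction (0.78 ± 0.22, adjusted p = 0.0209, and 0.90 ± 0.22, adjusted p = 0.0158), and the third was lost when replicate 3 after injury with stimulation was left out (adjusted p = 0.0688). It lies at GRCm38 chromosome 6, 125349362 to 125362484 with reads over 498 bp of exon, 280 of it coding, under an interval of 3299 bp.

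Tnfrsf21, the death receptor DR6, which neurons express, had 52.8, 59.8 and 42.7 CPM in the controls, 29.4, 31 and 40 in the injured libraries, 34.5, 58.5 and 49.3 in those injured and stimulated, and 68.5, 61.3 and 91.1 in those stimulated only. Injured libraries lay below all controls (−0.63 ± 0.21, adjusted p = 0.0295) and those with stimulation alone lay above them without passing (0.51 ± 0.20, adjusted p = 0.0698). Its call was lost in 4 of 12 fits without 1 library and after GC and length correction (−0.46 ± 0.18, adjusted p = 0.0798), where the gene was instead called higher with stimulation alone. The other 4 members of this family that were tested, among them the B cell survival ligand Tnfsf13b, had group means from 0.844 to 2.89 CPM and passed in no comparison.

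The chemokine receptor Ccr2 was lower than in controls in both stimulated groups. Ccr2, the receptor that brings monocytes into tissue, had 17.7, 26.8 and 17.7 CPM in the controls, 17.9, 10.7 and 18 in the injured libraries, 7.35, 11.7 and 8.98 in those injured and stimulated, and 4.17, 4.85 and 6.85 in those stimulated only. Libraries with stimulation alone lay below all libraries of the other groups, injured libraries overlapped the controls, and those with injury and stimulation lay below the controls. The level of Ccr2 fell to 0.258 of control with stimulation alone (−1.96 ± 0.28, adjusted p = 0.000198) and to 0.451 with both (−1.15 ± 0.28, adjusted p = 0.0101), and injury alone did not pass (−0.42 ± 0.27, adjusted p = 0.248). Stimulation of injured mice against injury did not pass (−0.73 ± 0.28, adjusted p = 0.274), and the call with both was lost without control replicate 2 or injured and stimulated replicate 3. The whole interval of 1836 bp lay on its exons, 1043 bp of them coding, and the call with stimulation alone held in all alternatives run. The gene lies at GRCm38 chromosome 9, 124101950 to 124113557. In a bulk sample, fewer cells of a type and less RNA per cell cannot be told apart.

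No chemokine or interleukin ligand of the symbol rule could be tested. Of 42 chemokine gene models 6 were named (Ccl19, Ccl21a, Ccl21b, Ccl22, Ccl27b and Ccl28), and their highest library reached at most 2.11 CPM. The 6 named of 41 interleukins (Il11, Il1f10, Il1rn, Il31, Il33 and Il7) reached at most 1.27 CPM. All 12 fell below the filter on low counts, and some were read through little exon (103 bp for Il1f10, 118 bp for Ccl28 and 120 bp for Il33), so a change in these ligands was not detectable with these counts.

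Interleukin receptors changed in 1 case among the 8 tested. Il17re, a subunit of the receptor for interleukin 17C, had 3.1, 3.75 and 4.1 CPM in the controls, 6.43, 5.84 and 5.0 in the injured libraries, 6.21, 6.22 and 7.09 in those injured and stimulated, and 5.8, 5.29 and 5.41 in those stimulated only. All treated libraries lay above all controls, and only injury with stimulation passed (0.83 ± 0.27, adjusted p = 0.0422, and 0.66 ± 0.27, adjusted p = 0.0732 after injury). That call was lost in 11 of 12 fits without 1 library and after GC and length correction (0.74 ± 0.27, adjusted p = 0.0781). Il6st, the signalling chain gp130 shared by interleukin 6 and its relatives, had 138, 156 and 100.1 CPM in the controls, 87.8, 80.3 and 101 in the injured libraries, 58.3, 129 and 80.7 in those injured and stimulated, and 115, 103 and 234 in those stimulated only. Stimulated replicate 3 stood far above the other libraries, the groups overlapped, and no comparison passed (−0.55 ± 0.30, adjusted p = 0.176 after injury), although Il6st was called lower after injury once corrected for GC and length. Il15ra, the interleukin 15 receptor, had 6.1, 7.74 and 7.26 CPM in the controls, 3.33, 3.82 and 4.03 in the injured libraries, 3.8, 8.58 and 2.6 in those injured and stimulated, and 3.83, 5.4 and 5.33 in those stimulated only. The injured libraries lay below all controls without passing (−0.92 ± 0.37, adjusted p = 0.0717).

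Among the CD surface proteins, Cd36 and Cd24a were lower than in controls in both stimulated groups. Cd36, a scavenger receptor that takes up fatty acids and is found on macrophages and endothelium, had 11.3, 12.1 and 22.4 CPM in the controls, 12.1, 16.4 and 12.9 in the injured libraries, 5.32, 4.61 and 4.61 in those injured and stimulated, and 4.64, 2.65 and 4.22 in those stimulated only. All 6 stimulated libraries lay below all 6 unstimulated ones. It fell against control with stimulation alone (−1.98 ± 0.30, adjusted p = 0.00027) and with both (−1.65 ± 0.30, adjusted p = 0.00457), and against injury when injured mice were stimulated (−1.51 ± 0.30, adjusted p = 0.0155). The last call was lost without injury replicate 1 or 2 or injured and stimulated replicate 3 (adjusted p up to 0.164), and after GC and length correction all 3 held (−1.44 ± 0.31, adjusted p = 0.00745, then −1.32 ± 0.30, adjusted p = 0.0243, and −1.33 ± 0.31, adjusted p = 0.0464). Cd36 lies at GRCm38 chromosome 5, 17781690 to 17888801 and was read through 1349 bp of exon, none of it coding.

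Cd24a, a small sialoglycoprotein of immature lymphocytes and of neurons, had 2699, 2995 and 2560.2 CPM in the controls, 2258, 1971 and 2226 in the injured libraries, 2030.3, 1689 and 2154 in those injured and stimulated, and 1288, 1117 and 1187 in those stimulated only. Libraries with stimulation alone lay below all others, controls lay above all others, and the 2 injured groups overlapped in between. It fell with stimulation alone to 0.435 of control (−1.20 ± 0.16, adjusted p = 9.84e-05) and with both to 0.712 (−0.49 ± 0.15, adjusted p = 0.0364), and stood higher with both than with stimulation alone (0.71 ± 0.15, adjusted p = 0.0184). The call with stimulation alone held in all alternatives that gave it a value, and the other 2 were lost after GC and length correction (−0.12 ± 0.21, adjusted p = 0.752, and 0.67 ± 0.21, adjusted p = 0.116). The Cd24a call with both against control was also lost in 10 of 12 fits without 1 library and with the replicate block (adjusted p = 0.0665). The call with both against stimulation alone was lost in 4 of 12 fits without 1 library. Cd9, a tetraspanin found on many cells, had group means from 1348 to 1853 CPM, and Cd320, the receptor for the vitamin B12 carrier, from 40.4 to 58.9 CPM, and neither passed in any comparison.

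**Figure D4:**
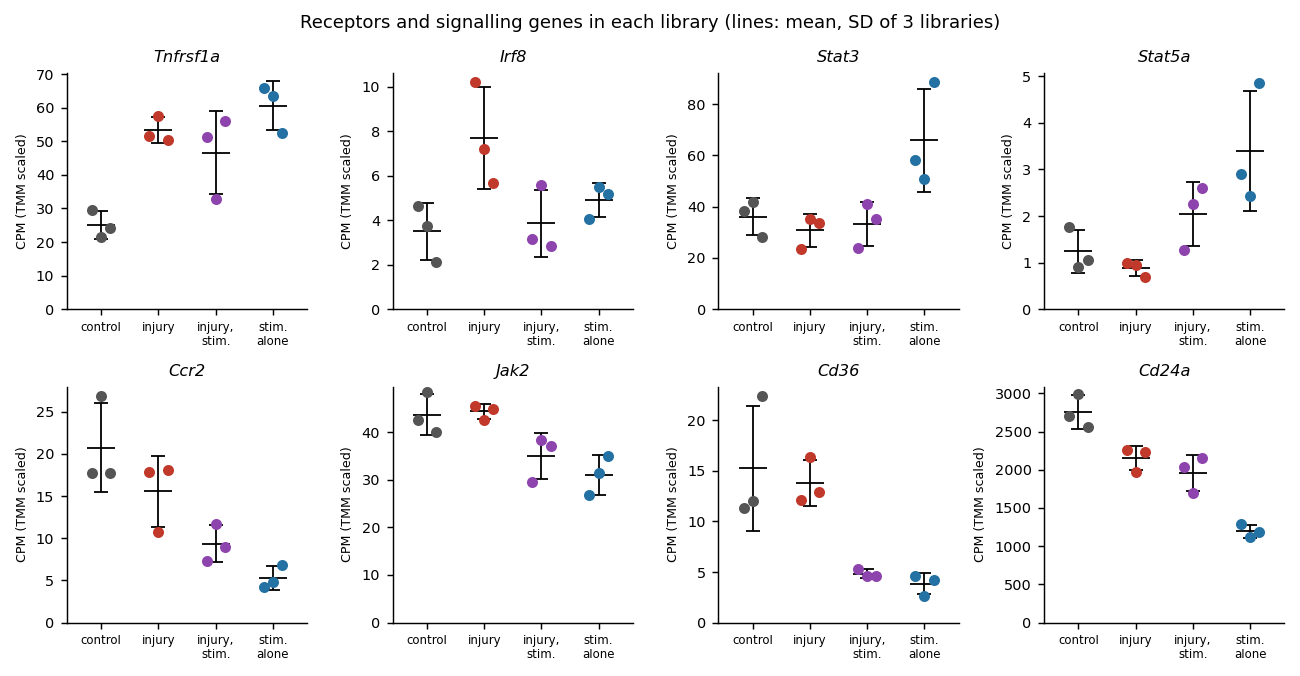
Level in CPM (y axis, from 0) of 8 receptor and signalling genes in each of the 12 libraries (points) by group (x axis; stim. is stimulation), with the mean and SD of 3 libraries as black lines. The 6 stimulated libraries lie lowest for Cd36, and the 3 libraries with stimulation alone lie highest for Stat3.

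Reln and Relch matched the symbol rule by their letters only. Reln, the extracellular protein reelin of the nervous system, had 9.76, 10.6 and 8.67 CPM in the controls, 3.55, 4.99 and 1.8 in the injured libraries, 2.41, 7.83 and 2.01 in those injured and stimulated, and 8.47, 5.4 and 15.3 in those stimulated only and was lower after injury without overlap (−1.47 ± 0.48, adjusted p = 0.0302), a call lost in 5 of 12 fits without 1 library, and stimulated replicate 3 was the highest of all. Relch had 59.1, 54.6 and 56.5 CPM in the controls, 62.7, 59.9 and 56.8 in the injured libraries, 72.6, 55.4 and 68.6 in those injured and stimulated, and 50.4, 49.2 and 43.9 in those stimulated only and passed in no comparison without GC and length correction.

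The interaction compares the effect of injury with and without stimulation. Tap2 had a log2 fold change for injury of 1.37 ± 0.23 among unstimulated mice and −0.05 ± 0.22 among stimulated mice, and the difference passed (−1.42 ± 0.32, adjusted p = 0.0082). H2-Eb1 gave 0.82 ± 0.18 and −0.55 ± 0.18 (−1.37 ± 0.25, adjusted p = 0.00309), and Tnfrsf1a 1.08 ± 0.19 and −0.38 ± 0.19 (−1.46 ± 0.27, adjusted p = 0.00297). In these 3 genes the level with both treatments was not above the level with either alone. Cd24a went the other way, with −0.35 ± 0.15 and 0.71 ± 0.15 (1.06 ± 0.22, adjusted p = 0.0049). After GC and length correction the H2-Q4 interaction was the only 1 called (−1.0 ± 0.26, adjusted p = 0.0324).

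Genes of the same pathways outside the symbol rule gave mixed directions. Of 12 tested antigen processing genes, 4 were higher and 3 lower after injury, and 1 higher and 5 lower with stimulation alone. Cathepsins Ctss (0.92 ± 0.19, adjusted p = 0.00293) and Ctsh (0.81 ± 0.18, adjusted p = 0.00422), which cut proteins for class II in endosomes, rose after injury, and both fell when injured mice were stimulated (−1.33 ± 0.19, adjusted p = 0.00289 for Ctss, and −1.16 ± 0.18, adjusted p = 0.00456 for Ctsh). The peptide trimming enzymes Erap1 (−1.96 ± 0.44, adjusted p = 0.00423) and Tpp2 (−1.56 ± 0.35, adjusted p = 0.00441) fell after injury and also with stimulation alone (−1.31 ± 0.42, adjusted p = 0.0249, and −0.98 ± 0.34, adjusted p = 0.0382).

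Of 16 tested interferon pathway genes, 3 were higher and 1 lower after injury, and 4 higher and 3 lower with stimulation alone. Lgals3bp, a secreted lectin-binding protein, was higher in both (0.97 ± 0.20, adjusted p = 0.00298 after injury, and 1.32 ± 0.20, adjusted p = 0.000288 with stimulation alone), and Samd9l was lower with stimulation alone (−1.35 ± 0.19, adjusted p = 0.00015). Of 19 tested adaptors of the NF-kappaB and Toll-like receptor pathways, 6 were higher and 2 lower after injury and 3 higher and 3 lower with stimulation alone. Unc93b1, which carries Toll-like receptors to endosomes, was higher after injury (1.33 ± 0.18, adjusted p = 0.000309) and fell when injured mice were stimulated (−0.80 ± 0.18, adjusted p = 0.0268), and Tnip1, an inhibitor of NF-kappaB, was higher with stimulation alone (1.29 ± 0.29, adjusted p = 0.00322). Of 6 tested genes of gp130 and growth factor signalling, 2 were higher and 1 lower after injury and 2 higher and none lower with stimulation alone. Cntfr, the receptor for ciliary neurotrophic factor, was higher after injury (1.29 ± 0.22, adjusted p = 0.00118), with stimulation alone (1.35 ± 0.22, adjusted p = 0.00038) and with both (1.28 ± 0.22, adjusted p = 0.00457), and the growth hormone receptor Ghr was lower after injury (−0.81 ± 0.28, adjusted p = 0.0356). The chemokine Cx3cl1 was higher after injury (2.08 ± 0.44, adjusted p = 0.0037) and with stimulation alone (1.81 ± 0.43, adjusted p = 0.00633).

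Markers of macrophages differed between the groups, in directions that depended on the comparison. Of 15 macrophage markers 7 were named and 6 tested, and 3 were higher and 1 lower after injury, 4 lower with stimulation alone, and 4 lower when injured mice were stimulated. Their summed level was 120 to 138 CPM in controls, 188 to 224 after injury, 99.0 to 114 after injury with stimulation and 74.0 to 98.4 with stimulation alone. Ptprc, the pan-leukocyte marker CD45, stayed at or under 0.833 CPM in all libraries. The part of macrophages in the changes of Ccr2, Cd36, Irf8 and the class II genes was not tested.

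Of 17 T and NK cell markers 4 were named, and their sum was 2.62 to 4.45 CPM in controls, 6.77 to 9.45 after injury, 5.36 to 8.62 with both and 5.84 to 6.29 with stimulation alone. Single named markers stood for B cells (Ms4a1, at most 6.32 CPM) and neutrophils (Csf3r, at most 5.83 CPM), and 3 for dendritic cells (sums up to 5.10 CPM). Markers of other tissue moved with injury as well. All 5 named of 10 Schwann cell markers (Cnp, Fa2h, Mag, Mal and Prx) were higher after injury and 4 with stimulation alone. These are myelin genes, some of them shared with oligodendrocytes, so the list does not stand for Schwann cells only. The 4 named of 6 oligodendrocyte markers were all higher after injury, with sums of 195 to 321 CPM in controls and 588 to 1070.0 after injury. Of 6 named fibroblast and meningeal markers 4 were higher, with sums of 9130.0 to 10000 CPM in controls and 27300 to 27600 after injury. Schwann cell, oligodendrocyte and fibroblast markers were then lower in 4 of 5, 4 of 4 and 4 of 6 cases when injured mice were stimulated. Satellite glia markers gave 1 higher and 2 lower of 4 after injury, and 1 higher and 3 lower with stimulation alone. Endothelial markers gave 1 of 3 and mast cell markers 1 of 2 higher after injury, the 1 red blood cell marker was higher, and none of 3 pericyte and smooth muscle markers passed. The 5 named sensory neuron markers summed to 4230.0 CPM or more in each library, and all 5 were higher with stimulation alone. The part of these cell types in the results was not tested.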

How the data were processed

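Poly(A) RNA of 12 trigeminal ganglion libraries was sequenced in paired 150 bp reads, per the labels. The authors deposited 1 table of read counts per library, made per the file headers with featureCounts 2.0.6 on Ensembl 110 gene models, unstranded, counting reads in each gene they overlap. The submitters' processing notes also list Salmon 1.10.2, FastQC and DESeq2. The sources used here name no aligner version and no alignment build. Intervals were named by GRCm38 position from GENCODE M21, as the interval over at least 100 bp of exons of only that gene, with the most exon bases. All 12 libraries entered 1 edgeR 4.0.16 quasi-likelihood fit (TMM scaling, filterByExpr, robust, biological coefficient of variation 0.235), adjusted by Benjamini-Hochberg over 13053 intervals. The code was tested on simulated data. Alternatives were DESeq2 1.42.0, other scaling and filters, a replicate block, a GC and length trend (natural splines of 4 degrees of freedom each, 4762 named intervals), other interval choices and leaving out each library. Results of 1 member are not reported here, though counts include it. Members, lists and tests were chosen with earlier results of these data known. Genes described by sample are those called in a comparison and the member with the most counts in each role, with other members given for contrast after their values were seen. The depth of 7.95 to 10.8 M (1000000) counted reads per library limits members under about 1 CPM.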

Additional observations from a re-analysis of the deposited data

Results flagged for a closer look

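The effect of injury differed between stimulated and unstimulated mice for 10 members, by the test of the interaction term in edgeR's fit. Over all intervals the term was called above 0 in 6.86% and below 0 in 12.3%, so this count is not read as particular to the members. The term was below 0 for Ifi211 (−3.86, adjusted p = 0.0396), Tnfrsf1a (−1.46, adjusted p = 0.00297), Tap2 (−1.42, adjusted p = 0.0082), H2-Eb1 (−1.37, adjusted p = 0.00309), Psmb8 (−1.31, adjusted p = 0.0209), H2-Q4 (−1.01, adjusted p = 0.00846), H2-DMa (−0.92, adjusted p = 0.0189) and H2-K1 (−0.76, adjusted p = 0.0257). It was above 0 for Cd24a (1.06, adjusted p = 0.0049) and Ccr2 (1.23, adjusted p = 0.0381). Of these calls, Tnfrsf1a, Tap2, H2-Eb1, H2-Q4 and Cd24a held in every fit without 1 library, and only H2-Q4 held after GC and length correction. Ifi211 had under 4 CPM in every library.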

How the results depend on the processing

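None of the 54 calls reversed sign in any alternative run, 20 held in every fit without 1 library and 25 after GC and length correction. After injury against control, 18 members were called, and 10 with that trend removed, 8 with it and the replicate block, and 8 to 20 without 1 library (8 without control replicate 3 and 10 without injury replicate 2). With stimulation alone 16 were called, 9 with the trend removed and the replicate block, and 10 to 20 without 1 library (10 without control replicate 3). With injury and stimulation against control 7 were called, 11 by DESeq2, 4 with only the compared groups fitted, 4 with the replicate block, 1 with the block and the trend removed, and 0 to 19 without 1 library. Stimulation of injured mice gave 1, with 4 by DESeq2, 5 without the low count filter, 0 with the block and the trend removed, and 0 to 3 without 1 library (0 without injury replicate 1 or 2 or injured and stimulated replicate 3). Injury with stimulation against stimulation alone gave 2, with 5 by DESeq2, 4 without the filter, 0 with only the compared groups, 0 with the trend removed, with or without the block, 1 with at least 300 bp of exon, and 0 to 7 without 1 library. The interaction gave 10, with 1 once the trend was removed, 0 with the block as well, and 5 to 17 without 1 library (5 without control replicate 3, injury replicate 2 or stimulated replicate 2, and 17 without injured and stimulated replicate 1). A setting chosen after seeing the data kept the 13 members with over 50% of the interval on their exons, and called 3 after injury, 5 with stimulation alone, 3 with both against control, 0 when injured mice were stimulated, 0 against stimulation alone and 3 in the interaction. The causes were not tested, beyond fewer members or libraries where a setting removes them. Same-numbered libraries of different groups had correlations of their deviations from −0.246 to 0.181 over 18 pairs (median 0.002). Libraries with different numbers had −0.364 to 0.413 over 36 pairs (median 0.001). The labels do not say whether the numbers pair the samples, and these correlations cannot settle it. The replicate block left 18 calls after injury and 15 with stimulation alone. GC and length correction moved the median of the 4762 named intervals in that fit by up to 0.18 on the log2 scale, in the interaction.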

Other observations

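Some members were also covered by a second interval, over other exons of the same gene. Ccr2 was lower with stimulation alone in each of 3 such intervals, with log2 fold changes of −1.51 ± 0.36 (SE, adjusted p = 0.0045 by edgeR's test), −1.51 ± 0.37 (adjusted p = 0.00518) and −1.22 ± 0.71 (adjusted p = 0.218, not called). The Ccr2 call for injury with stimulation against control was met in none of the 3 intervals (−0.80 ± 0.35, adjusted p = 0.124, then −0.85 ± 0.36, adjusted p = 0.112, and −0.14 ± 0.68, adjusted p = 0.916). H2-DMa was higher after injury in its second interval (0.91 ± 0.22, adjusted p = 0.00546), Stat5a was higher with stimulation alone (1.74 ± 0.55, adjusted p = 0.0251), and Reln was lower after injury (−1.38 ± 0.51, adjusted p = 0.0491). The call of H2-Q7 with stimulation alone was not met in the second interval (0.81 ± 0.43, adjusted p = 0.182). Nor were those of H2-DMa (0.47 ± 0.22, adjusted p = 0.113) and Jak2 (−0.85 ± 0.49, adjusted p = 0.212). The call of H2-DMa with both treatments against control was met there (0.65 ± 0.22, adjusted p = 0.0478). Jak2 differed between its intervals after injury, with −1.84 ± 0.53 (adjusted p = 0.015) in the second and 0.02 ± 0.15 in the first.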
